A study of Mus musculus with 12 samples.

Results

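The transcripts described here are 30 genes of cholesterol and fatty acid synthesis, listed by symbol and read from a count table of 35976 genes. All 30 were found in the table, and all 30 passed the filter on low counts that left 15334 genes for testing. They comprised 18 enzymes of the sterol pathway from acetoacetyl-CoA to cholesterol, 6 genes of sterol sensing and transfer, and 6 genes of fatty acid synthesis and modification. RNA-seq counts covered 12 libraries of FACS-sorted CD45.2+ bone marrow cells from C57BL/6 mice in 4 genotype groups of 3 libraries. The groups were BN1 (CD45.2+ cells with BRD9-NUTM1), MA9 (CD45.2+ cells with MLL-AF9), ME (CD45.2+ cells with MLL-ENL) and WT (CD45.2+ marrow with no fusion). BRD9-NUTM1 joins a bromodomain subunit of a SWI/SNF chromatin remodelling complex to NUTM1, and MLL-AF9 and MLL-ENL join the N-terminal portion of the MLL histone methyltransferase to AF9 or ENL. The design text calls the fusion-bearing cells leukemic. The sources used here do not give how the fusions were introduced, the age of the mice or the number of mice behind each library.

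Cholesterol is built from acetyl-CoA through mevalonate, isoprenoid pyrophosphates, squalene and lanosterol, while fatty acids are built from cytosolic acetyl-CoA through malonyl-CoA. Both pathways are controlled at transcription by the SREBP factors. SREBP-2, encoded by Srebf2, acts mainly on sterol genes and SREBP-1, encoded by Srebf1, mainly on fatty acid genes. SCAP escorts the precursors from the endoplasmic reticulum to the Golgi for cleavage, and INSIG proteins hold SCAP back when sterols are plentiful. In marrow, dividing progenitors need lipid for new membrane.

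Library totals ran from 18292636 to 25732049 counts. Separate mice are stated for no group. The p-values reflect the spread among libraries within groups, estimated in 1 fit of all 12 libraries, and that spread may be technical. ME replicate 3 stood further from its group than any other library did, with mean chi-square values of 32.3 and 35.2 per gene against ME replicates 1 and 2, while the other pairs within a group lay between 2.01 and 7.51. Levels are given in CPM, TMM-scaled counts relative to library size. Red cell markers summed to 16.4 CPM in BN1, 23.9 CPM in MA9, 3.01 CPM in ME and 30340 CPM in WT. B cell markers summed to 5.33, 18.8, 1.40 and 1127 CPM in BN1, MA9, ME and WT, and mature neutrophil markers to 4393, 531, 175 and 56150 CPM, so the WT libraries held many marrow lineages. Monocyte markers summed to 5085 CPM in BN1, 1477 CPM in MA9, 2018 CPM in ME and 1940 CPM in WT. In each comparison with WT the fusion and the lineage makeup therefore changed together, and their parts cannot be told apart. In bulk RNA, fewer cells of a type and less RNA per cell cannot be told apart either.

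Members lay on both sides of WT in each leukemia, with more of them higher than lower in MA9 and ME. In BN1 against WT, 12 members were higher, 11 were lower and 7 were not called at an adjusted p under 0.05, where 38.4% of all tested genes were higher and 40.8% were lower. With libraries scaled by total count alone, 17 members were higher and 9 lower in BN1 against WT. In MA9 against WT, 16 members were higher and 8 were lower, beside 39.3% and 40.8% of all genes. ME against WT had 17 members higher and 7 lower, beside 39% and 40.2% of all genes. The median log2 fold change of the members was 0.11, 0.25 and 0.27 in BN1, MA9 and ME against WT, and that of all genes was -0.01 in each. The median absolute log2 fold change was 0.56, 0.53 and 0.47 for the members and 0.71, 0.75 and 0.72 for all genes.

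The wide shifts sat in a few genes. The highest group mean was less than 2-fold above the lowest for 17 members, between 2-fold and 3-fold for 10, and more than 10-fold for the other 3, which were Fasn, Scd1 and Elovl6, all of the fatty acid arm. BN1 held the highest mean for 12 members, MA9 for 9, ME for 1 and WT for 8. WT held the lowest mean for 14 members, BN1 for 9, MA9 for 5 and ME for 2. Replicates lay close together, with a median coefficient of variation across members of 6.34% in BN1, 5.32% in MA9, 4.48% in ME and 5.52% in WT.

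**Figure D1:**
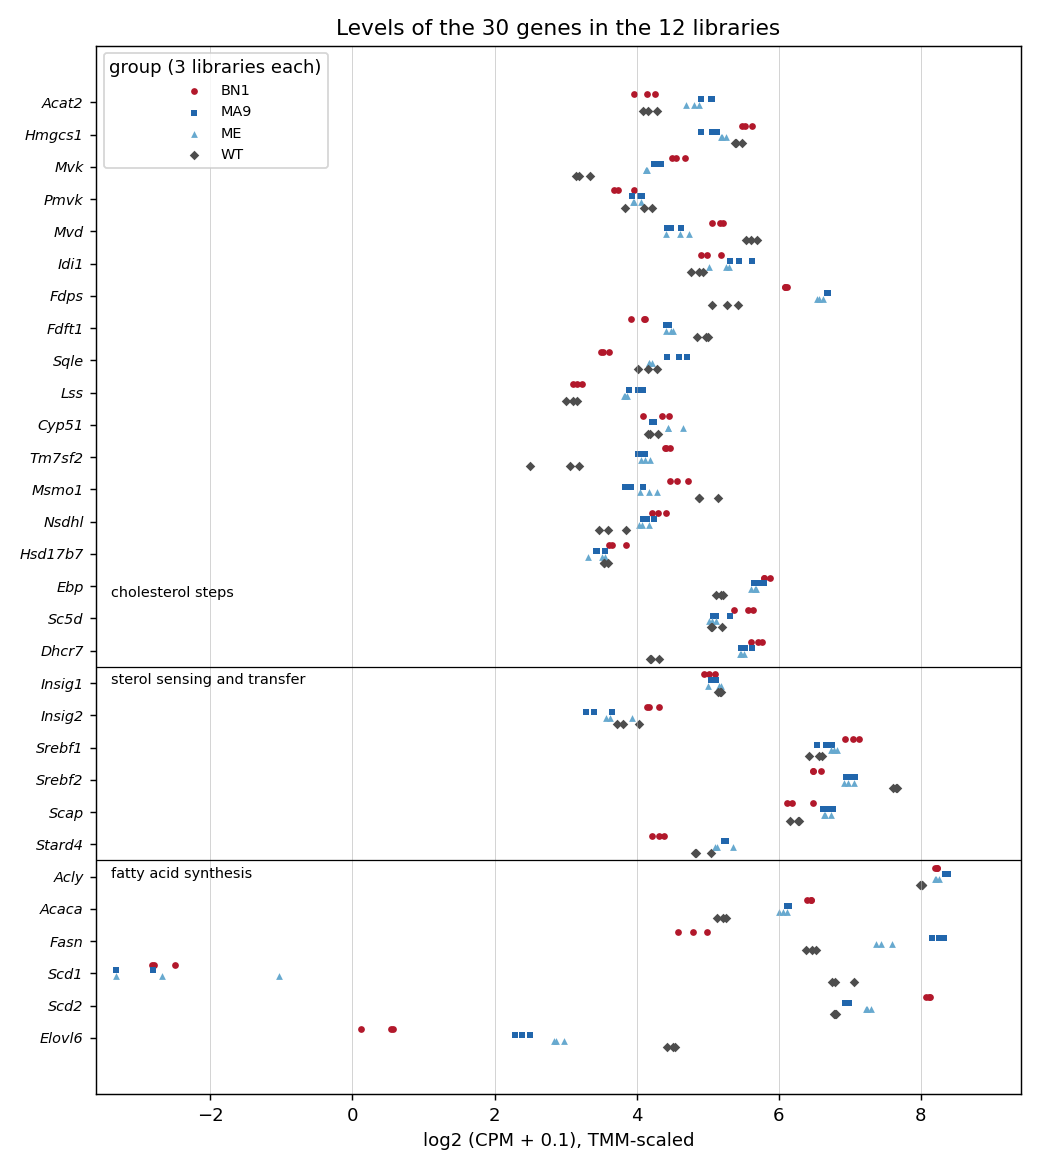
Levels of the 30 genes in each library, as log2 (CPM + 0.1) on the horizontal axis, with 1 point per library and 3 libraries in each of BN1, MA9, ME and WT. Most genes sit in a narrow band in all 4 groups, and the widest separations are those of Fasn, Scd1 and Elovl6 at the bottom.

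Levels per kilobase of exon allow the genes to be ordered within a group. Acly, the ATP citrate lyase that makes cytosolic acetyl-CoA, ranked 1 of 30 in BN1, MA9 and WT and 2 in ME, at 64.4, 71.3, 55.6 and 64.6 CPM per kb. Fdps, the farnesyl diphosphate synthase, ranked 3 in BN1, 2 in MA9, 1 in ME and 4 in WT. Rank was less steady for Fasn, the multifunctional fatty acid synthase, which was 26 of 30 in BN1, 3 in MA9, 8 in ME and 15 in WT. Scd1, a stearoyl-CoA desaturase, was last in the 3 leukemias and 5 of 30 in WT.

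Summed over the 18 sterol enzymes, levels were 526 ± 12.9 CPM in BN1, 546 ± 15.0 CPM in MA9, 522 ± 9.27 CPM in ME and 430 ± 1.49 CPM in WT (SD, n = 3 each). The sum was thus higher in every leukemia library, at 512 CPM or more, than in any WT library, at 432 CPM or less. The 6 sensing and transfer genes summed to 371 ± 20.03 CPM in BN1, 415 ± 14.9 CPM in MA9, 422 ± 7.65 CPM in ME and 447 ± 10.3 CPM in WT. For the 6 fatty acid genes the sums were 687 ± 5.06 CPM in BN1, 832 ± 17.6 CPM in MA9, 702 ± 28.0 CPM in ME and 632 ± 11.7 CPM in WT. These sums are led by the most abundant genes and hide opposite movements of single genes, which follow by step of the pathway.

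Start-site windows from RefSeq (GRCm38.p6, 250 bases before to 50 after each start) were found for 24 of the 30 genes, in 32 windows. There was no entry for Fdps, Fdft1, Sqle, Stard4, Scd1 and Scd2. Windows of 4 genes are shown because the results turn on their different behaviour: Hmgcs1 and Mvk for the first steps to mevalonate phosphate, Mvd as an enzyme that was lower in each leukemia than in WT, and Fasn for opposite changes in BN1 and in the MLL-fusion cells. The 250 bases upstream of the start are printed 5′ to 3′ on the gene's strand. Capitals mark CCAAT (or ATTGG, its other strand), the core bound by NF-Y, and TCACNCCA, the core of a sterol regulatory element. The windows are Hmgcs1 at chr13:119690101-119690350 on the plus strand, Mvk at chr5:114444019-114444268 on the plus strand, Mvd at chr8:122443423-122443672 on the minus strand and Fasn at chr11:120824548-120824797 on the minus strand. The annotated span of Fasn (chr11:120805958-120825166) extends further upstream than the transcript start used here.
Hmgcs1: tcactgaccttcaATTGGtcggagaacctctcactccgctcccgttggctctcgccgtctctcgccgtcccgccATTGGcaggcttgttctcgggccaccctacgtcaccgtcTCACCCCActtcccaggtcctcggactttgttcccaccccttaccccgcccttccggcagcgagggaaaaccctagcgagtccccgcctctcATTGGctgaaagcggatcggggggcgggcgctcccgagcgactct
Mvk: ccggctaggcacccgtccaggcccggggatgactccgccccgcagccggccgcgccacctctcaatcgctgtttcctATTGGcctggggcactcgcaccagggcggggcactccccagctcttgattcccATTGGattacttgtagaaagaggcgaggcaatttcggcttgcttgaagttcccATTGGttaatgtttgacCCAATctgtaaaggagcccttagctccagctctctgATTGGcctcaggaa
Mvd: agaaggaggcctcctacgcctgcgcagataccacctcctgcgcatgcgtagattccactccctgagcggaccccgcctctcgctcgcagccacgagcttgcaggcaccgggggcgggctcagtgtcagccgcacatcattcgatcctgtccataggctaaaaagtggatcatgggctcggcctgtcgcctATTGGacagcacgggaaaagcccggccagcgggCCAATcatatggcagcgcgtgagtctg
Fasn: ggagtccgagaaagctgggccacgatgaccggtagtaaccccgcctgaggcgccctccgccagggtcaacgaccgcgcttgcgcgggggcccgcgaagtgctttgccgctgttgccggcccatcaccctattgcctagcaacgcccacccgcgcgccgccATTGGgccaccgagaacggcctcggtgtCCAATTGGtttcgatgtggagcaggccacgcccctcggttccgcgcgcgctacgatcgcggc

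In these windows, Mvk held 5 CCAAT boxes, Mvd held 2, and Fasn held 3, including an overlapping pair, CCAATTGG. Hmgcs1 held the sterol element core TCACCCCA, 137 bases before the start, between CCAAT boxes. Among the 24 genes with a window, 20 (83.3%) held CCAAT on either strand, compared with 41.1% of the 27025 genes in the promoter table. That wider set was not limited to tested or protein-coding genes, whereas every member was both, so the 2 sets differ in more than pathway. TCACNCCA was present for Hmgcs1, Msmo1 and Srebf2, 3 of 24 (12.5%, compared with 4.97% of all genes). CACGTG, an E-box, was present for Hsd17b7, Sc5d, Dhcr7, Insig1 and Scap, 5 of 24 (20.8%, compared with 8.09%). By window, the shares were 65.6% and 37.4% for CCAAT, 9.38% and 4.36% for TCACNCCA, and 18.8% and 7.15% for CACGTG, for members and all 32851 windows. None of the 3 motifs contains another. A match is a description of letters in the window and does not show that a factor binds there.

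The early steps, from acetyl-CoA units to the isoprenoid pyrophosphates, moved in both directions. Acat2, which joins acetyl-CoA units into acetoacetyl-CoA, was at 15.4, 19.0 and 17.6 CPM in BN1, at 30, 33.0 and 33.3 CPM in MA9, at 29.2, 25.7 and 27.9 CPM in ME, and at 16.9, 19.4 and 17.8 CPM in WT. MA9 and ME libraries were all above all WT libraries, while BN1 and WT overlapped. Mouse Acat3 is a near-identical copy, and how reads shared by both were counted is not known here. The log2 fold change was -0.06 ± 0.09 in BN1 against WT (SE, not called), 0.84 ± 0.09 in MA9 (edgeR adjusted p = 1.2e-09) and 0.62 ± 0.09 in ME (adjusted p = 4.2e-07). Hmgcs1, the cytosolic HMG-CoA synthase, went the other way, at -0.39 ± 0.07 in MA9 and -0.21 ± 0.07 in ME against WT, and at 0.12 ± 0.07 in BN1, not called. The ME call was lost when libraries were scaled by total count alone, at a log2 fold change of -0.09. An opposite-strand transcript covers 16.0% of the Hmgcs1 exon bases.

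Mvk, the mevalonate kinase whose window holds 5 CCAAT boxes, was at 22.6, 23.5 and 25.5 CPM in BN1, at 20.3, 18.9 and 20.1 CPM in MA9, at 17.4, 17.6 and 17.3 CPM in ME, and at 8.76, 9.06 and 10.1 CPM in WT. No leukemia library overlapped WT. Mvk rose 2.57-fold in BN1 (log2 1.36 ± 0.09, adjusted p = 2.3e-13), 2.12-fold in MA9 (1.08 ± 0.10, 4.5e-11) and 1.88-fold in ME (0.91 ± 0.10, 2.2e-09) relative to WT. Pmvk, the next kinase of the route, averaged 13.8 ± 1.46 CPM in BN1, 16.1 ± 0.83 CPM in MA9, 15.8 ± 0.67 CPM in ME and 16.6 ± 2.16 CPM in WT. It was called lower only in BN1 among the comparisons with WT (log2 -0.26 ± 0.11, adjusted p = 0.03), with overlapping groups. That call was lost without WT replicate 2 (-0.17), WT replicate 3 (-0.23), BN1 replicate 1 (-0.22) or BN1 replicate 2 (-0.19), and also with no filter (-0.24), under upper-quartile scaling (-0.22) and under scaling by total count alone (-0.13).

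Mvd, which decarboxylates mevalonate diphosphate to isopentenyl diphosphate, fell in each leukemia. Its levels were 36.1, 33.2 and 36.9 CPM in BN1, 24.6, 21.5 and 22.4 CPM in MA9, 26.6, 24.4 and 21.2 CPM in ME, and 46.4, 51.7 and 48.6 CPM in WT. All 9 leukemia libraries were below all WT libraries, and BN1 was above MA9 and ME. Log2 fold changes against WT were -0.47 ± 0.08 in BN1, -1.10 ± 0.08 in MA9 and -1.02 ± 0.08 in ME. Idi1, the isopentenyl diphosphate isomerase, rose in MA9 (0.61 ± 0.09) and ME (0.33 ± 0.09), and its BN1 value of 0.17 ± 0.09 was not called. Reads of Idi1 may be shared with an opposite-strand transcript that covers 10.7% of its exon bases, since no source used here gives the strand setting of the counting.

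Fdps, which makes farnesyl diphosphate for sterols and for protein prenylation, was at 67.7, 67.9 and 69.0 CPM in BN1, at 103, 102 and 103 CPM in MA9, at 92.6, 94.2 and 98.6 CPM in ME, and at 33.2, 42.9 and 38.5 CPM in WT. The 4 groups did not overlap. Fdps rose 1.79-fold in BN1 (log2 0.84 ± 0.07, adjusted p = 3.0e-12), 2.69-fold in MA9 (1.43 ± 0.07, 1.5e-17) and 2.49-fold in ME (1.32 ± 0.07, 1.0e-16) relative to WT. A same-strand gene model, Gm43738, covers 77.4% of the Fdps exon bases, so its count is uncertain in level.

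The step after Fdps ran opposite to it. Fdft1, the squalene synthase that commits farnesyl diphosphate to sterols, was at 17.2, 17.2 and 15.0 CPM in BN1, at 21.1, 21.8 and 21.8 CPM in MA9, at 21.1, 22.2 and 22.8 CPM in ME, and at 28.8, 31.9 and 31.4 CPM in WT. WT libraries were highest and BN1 libraries lowest, without overlap. Its log2 fold changes against WT were -0.90 ± 0.08, -0.51 ± 0.08 and -0.48 ± 0.08 in BN1, MA9 and ME. Ctsb, a cathepsin gene on the opposite strand, overlaps 20.9% of the Fdft1 exon bases, and its part in these counts was not tested.

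Sqle, the squalene epoxidase, divided BN1 from MA9. It was at 12.1, 11.2 and 11.4 CPM in BN1, at 24.1, 26.1 and 21.3 CPM in MA9, at 17.99, 18 and 18.5 CPM in ME, and at 17.8, 16.2 and 19.4 CPM in WT. BN1 libraries were all below WT, MA9 libraries all above, and ME overlapped WT. Sqle fell in BN1 (log2 -0.62 ± 0.10, adjusted p = 2.4e-06) and rose in MA9 (0.42 ± 0.10, 0.00021), and the ME value was 0.03 ± 0.10.

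Lss, the lanosterol synthase that closes the sterol rings, was at 8.90 ± 0.38 CPM in BN1, 16.0 ± 1.15 CPM in MA9, 14.3 ± 0.23 CPM in ME and 8.43 ± 0.47 CPM in WT (SD, n = 3). It rose in MA9 (log2 0.92 ± 0.11) and ME (0.76 ± 0.11), and its value of 0.08 ± 0.11 in BN1 was not called. An opposite-strand transcript covers 8.16% of the Lss exon bases. Cyp51, the lanosterol demethylase, was called only in ME against WT (0.30 ± 0.10, adjusted p = 0.0062), with 0.09 ± 0.10 in BN1 and 0.01 ± 0.10 in MA9.

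Tm7sf2, a sterol reductase that acts on the ring double bond left by Cyp51, rose in the 3 leukemias. Levels were 21.1, 21.0 and 22.1 CPM in BN1, 16.4, 17.3 and 16.1 CPM in MA9, 18.1, 16.5 and 17.2 CPM in ME, and 5.58, 9.06 and 8.27 CPM in WT. The leukemia libraries were all above WT, and the fold changes were 2.82 in BN1, 2.18 in MA9 and 2.27 in ME. Msmo1, the methylsterol monooxygenase that starts removal of the methyl groups, fell instead, to 24.04 ± 2.19 CPM in BN1, 15.4 ± 1.37 CPM in MA9 and 17.95 ± 1.47 CPM in ME, against 31.3 ± 3.34 CPM in WT. Its log2 fold changes were -0.38 ± 0.09, -1.03 ± 0.10 and -0.81 ± 0.09 in BN1, MA9 and ME.

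Nsdhl, the dehydrogenase that works after Msmo1 in the same demethylation, rose modestly in each leukemia, by 0.66 ± 0.10 in BN1, 0.51 ± 0.10 in MA9 and 0.45 ± 0.10 in ME on the log2 scale. Hsd17b7, the ketosteroid reductase of that complex, was not called by the edgeR fit in any comparison, at 12.97 ± 1.15 CPM in BN1, 11.1 ± 0.53 CPM in MA9, 10.95 ± 0.98 CPM in ME and 11.7 ± 0.25 CPM in WT. It was near the threshold in BN1 against ME (log2 0.24 ± 0.11, adjusted p = 0.051), where DESeq2 and limma-voom called it higher, and limma-voom also called it higher in BN1 against MA9. With scaling by total count alone it was called higher in BN1 against WT. In the edgeR fit with TMM scaling, successive enzymes of the demethylation had a lower, a higher and an uncalled transcript in each leukemia relative to WT.

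The last steps were higher in the leukemias or not called. Ebp, the sterol isomerase, rose by 0.65 ± 0.06 in BN1, 0.55 ± 0.06 in MA9 and 0.48 ± 0.06 in ME against WT. Sc5d, the sterol desaturase that follows it, was higher in BN1 at 46.0 ± 4.21 CPM, against 34.3 ± 2.10 CPM in WT (log2 0.42 ± 0.08, adjusted p = 1.4e-05), while the values in MA9 (0.06 ± 0.08) and ME (-0.04 ± 0.08) were not called. Dhcr7, the reductase that converts the precursor of vitamin D to cholesterol, was at 48.5, 54.3 and 52.2 CPM in BN1, at 44.3, 46.0 and 49.4 CPM in MA9, at 43.8, 44.3 and 45.3 CPM in ME, and at 19.8, 18.1 and 18.4 CPM in WT. Every leukemia library was above 43 CPM and every WT library below 20 CPM. Dhcr7 rose 2.75-fold in BN1 (log2 1.46 ± 0.07, adjusted p = 5.0e-17), 2.48-fold in MA9 (1.31 ± 0.07, 8.1e-16) and 2.37-fold in ME (1.24 ± 0.07, 3.2e-15).

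Counted over the 18 sterol enzymes, 7 were higher and 5 lower in BN1 against WT, 10 and 4 in MA9, and 10 and 4 in ME. Over all tested genes the shares higher and lower were 38.4% and 40.8% in BN1, 39.3% and 40.8% in MA9, and 39% and 40.2% in ME. The enzymes' median log2 fold change was 0.14 in BN1, 0.47 in MA9 and 0.32 in ME. The comparisons share the WT libraries, so the 3 sets of values are not independent of one another.

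**Figure D2:**
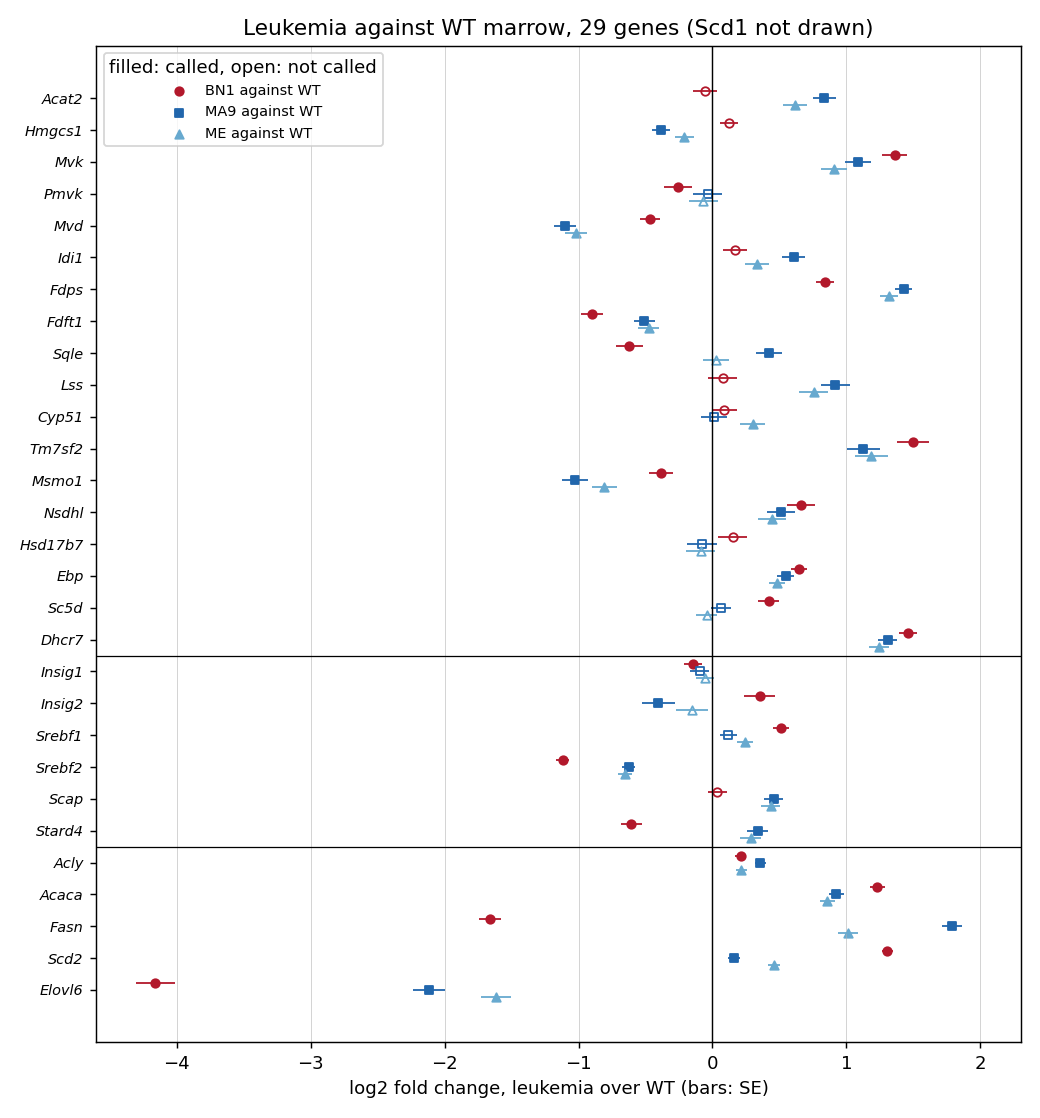
Log2 fold changes of 29 genes, all members but Scd1, in BN1, MA9 and ME over WT on the horizontal axis, with bars of 1 SE, filled symbols for an adjusted p under 0.05 and open symbols otherwise; lines divide the sterol enzymes, the sensing and transfer genes and the fatty acid genes. Mvk, Fdps, Tm7sf2, Dhcr7, Acaca and Scd2 lie right of 0 for each leukemia, Elovl6 lies furthest left of the genes drawn, and Fasn lies left for BN1 (-1.66) and right for MA9 (1.79) and ME (1.01).

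Among the regulators, the 2 SREBP genes moved in opposite directions in BN1. Srebf2 was at 89.4, 88.9 and 96.1 CPM in BN1, at 134, 123 and 130 CPM in MA9, at 125, 133 and 121 CPM in ME, and at 194, 202 and 201 CPM in WT. The order was BN1, then MA9 and ME overlapping each other, then WT, with gaps between those 3 levels. Srebf2 fell 2.17-fold in BN1 (log2 -1.12 ± 0.05, adjusted p = 7.6e-18), 1.54-fold in MA9 (-0.62 ± 0.05, 3.0e-12) and 1.57-fold in ME (-0.65 ± 0.05, 1.2e-12).

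Srebf1 was at 132, 122 and 140 CPM in BN1, at 102, 92.6 and 107 CPM in MA9, at 109, 113 and 106 CPM in ME, and at 85.5, 94.6 and 97.6 CPM in WT. BN1 libraries were the highest, and MA9 overlapped WT. It rose in BN1 (log2 0.51 ± 0.06, adjusted p = 1.6e-08) and ME (0.25 ± 0.06, 0.00069), and the MA9 value was 0.12 ± 0.06, not called. Per kilobase, the ratio of Srebf1 to Srebf2 was 1.75, 1.62 and 1.72 in BN1, 0.897, 0.888 and 0.976 in MA9, 1.03, 1.01 and 1.04 in ME, and 0.521, 0.554 and 0.575 in WT. The 4 groups did not overlap in this ratio, and an exact permutation test of 3 against 3 libraries cannot go below 0.10. Counts do not separate the Srebf1 transcripts that begin at different starts.

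Scap, the escort of both precursors, was at 77.2 ± 10.7 CPM in BN1, 104 ± 4.68 CPM in MA9, 102 ± 4.23 CPM in ME and 75.4 ± 3.46 CPM in WT. It rose in MA9 (log2 0.46 ± 0.07) and ME (0.44 ± 0.07), and BN1 overlapped WT (0.04 ± 0.07). Another transcript on the opposite strand covers 18.6% of the Scap exon bases.

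The retention genes differed from each other. Insig1, a classical SREBP target, was at 32.4 ± 1.64 CPM in BN1, 33.6 ± 1.001 CPM in MA9, 34.7 ± 2.28 CPM in ME and 35.9 ± 0.54 CPM in WT. Its BN1 call (log2 -0.15 ± 0.07, adjusted p = 0.048) was lost when any 1 library other than BN1 replicate 2 or ME replicate 2 was left out, with values of -0.16 to -0.11. It was also lost with the replicate block (-0.15), with only the groups compared (-0.14), with no filter (-0.13), under upper-quartile scaling (-0.11) and under scaling by total count alone (-0.02). Insig2 rose in BN1, at 18.4 ± 1.18 CPM (0.35 ± 0.12, adjusted p = 0.0071), and fell in MA9, at 10.9 ± 1.48 CPM (-0.41 ± 0.12, 0.0036), against 14.4 ± 1.68 CPM in WT. ME was at 13.1 ± 1.90 CPM and was not called, and the MA9 call was lost under scaling by total count alone, at -0.23.

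Stard4, a soluble carrier that moves cholesterol between membranes, was at 20.7, 19.9 and 18.5 CPM in BN1, at 37.8, 38.0 and 37.5 CPM in MA9, at 34.8, 34.2 and 40.7 CPM in ME, and at 32.9, 28.3 and 28.6 CPM in WT. BN1 libraries were all below WT, and MA9 and ME libraries were all above. Stard4 fell in BN1 (log2 -0.61 ± 0.08, adjusted p = 1.3e-07) and rose in MA9 (0.34 ± 0.08, 0.0003) and ME (0.29 ± 0.08, 0.0017).

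The fatty acid arm held the largest differences among the members. Acly, which supplies its acetyl-CoA, was the most even, at 297 ± 3.55 CPM in BN1, 329 ± 6.06 CPM in MA9, 298 ± 7.00 CPM in ME and 257 ± 1.88 CPM in WT. It rose by 0.21 ± 0.04, 0.36 ± 0.04 and 0.22 ± 0.04 on the log2 scale in BN1, MA9 and ME. Acaca, the acetyl-CoA carboxylase that makes malonyl-CoA, was at 87.3, 84.3 and 87.1 CPM in BN1, at 69.9, 70.3 and 69.2 CPM in MA9, at 66.8, 69.1 and 63.8 CPM in ME, and at 38.3, 37.0 and 34.9 CPM in WT. Every leukemia library was above WT, with rises of 2.35-fold in BN1 (log2 1.23 ± 0.06, adjusted p = 1.2e-17), 1.90-fold in MA9 (0.93 ± 0.06, 1.2e-14) and 1.81-fold in ME (0.86 ± 0.06, 7.6e-14).

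Fasn, which builds palmitate from malonyl-CoA, did not follow Acaca. It was at 27.6, 23.9 and 31.6 CPM in BN1, at 306, 286 and 320 CPM in MA9, at 173, 193 and 164 CPM in ME, and at 83.7, 91.7 and 88.2 CPM in WT. The 4 groups were fully separated, with BN1 lowest, then WT, ME and MA9. Fasn fell 3.16-fold in BN1 (log2 -1.66 ± 0.08, adjusted p = 9.4e-14) and rose 3.46-fold in MA9 (1.79 ± 0.07, 4.4e-15) and 2.02-fold in ME (1.01 ± 0.07, 7.6e-11) relative to WT. The 3 BN1 libraries held 670, 531 and 826 Fasn counts, so these values do not rest on few reads. Per kilobase, the ratio of Fasn to Acaca was 0.299, 0.268 and 0.344 in BN1, 4.15, 3.85 and 4.37 in MA9, 2.45, 2.65 and 2.44 in ME, and 2.07, 2.35 and 2.39 in WT. BN1 was thus the only group with less Fasn than Acaca per kilobase.

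Scd1 and Scd2, neighbouring genes on chromosome 19 (GRCm38 chr19:44394450-44407709 and chr19:44293676-44306864), encode stearoyl-CoA desaturases, which make monounsaturated fatty acids. Scd1 had 1, 1 and 2 counts in BN1, 0, 1 and 0 in MA9, 8, 0 and 1 in ME, and 2229, 1918 and 2411 in WT. It was all but undetected in the leukemias, and it passed the filter through the WT libraries, so a difference was bound to appear for it. The ratio of WT to BN1 was 2127 (exact 95% interval 830 to 7807, counting error only), that of WT to MA9 was 7454 on a single MA9 count (1337 to 294500), and that of WT to ME was 790 (416 to 1728). The ME libraries differed among themselves, with 8 of the 9 counts in replicate 1.

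Scd2 was at 276, 278 and 268 CPM in BN1, at 126, 124 and 122 CPM in MA9, at 150, 157 and 151 CPM in ME, and at 112, 111 and 110 CPM in WT. It rose 2.47-fold in BN1 (log2 1.31 ± 0.04, adjusted p = 1.1e-20), 1.12-fold in MA9 (0.16 ± 0.04, 0.0016) and 1.38-fold in ME (0.46 ± 0.04, 1.9e-10). Scd1 made up 0.0224% of the per-kilobase sum of both genes in BN1, 0.0131% in MA9, 0.11% in ME and 54.3% ± 3.0 in WT. That sum was 50.3 ± 0.96 CPM per kb in BN1, 22.7 ± 0.41 in MA9, 28.0 ± 0.69 in ME and 44.6 ± 2.66 in WT. Summed Scd1 and Scd2 transcript was therefore highest in BN1, and lower in MA9 and ME than in WT, without overlap.

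The 6 fat cell markers summed to 31.1 CPM in BN1, 26.5 CPM in MA9, 35.5 CPM in ME and 44.2 CPM in WT, mostly from Lipe. Fabp4 had 203 counts in BN1, 28 in MA9, 9 in ME and 275 in WT. Lep had 0, 63, 1 and 0 counts in BN1, MA9, ME and WT, and Adipoq, Plin1 and Cidec had 0 to 4 counts in each group. Cells were sorted for CD45.2, a marker of blood cells that fat cells lack, and the part of fat cells in the Scd1 counts was not tested. Red cell, B cell and mature neutrophil markers were higher in WT than in the leukemias, as Scd1 was. Mature neutrophil markers still summed to 4393 CPM in BN1, where Scd1 was all but undetected. The part of these cell types in the Scd1 difference was not tested.

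Elovl6, which lengthens palmitate to stearate, was at 1.36, 0.99 and 1.38 CPM in BN1, at 4.77, 5.57 and 5.15 CPM in MA9, at 7.74, 7.16 and 7.06 CPM in ME, and at 22.7, 23.2 and 21.5 CPM in WT. The 4 groups did not overlap. Elovl6 fell 17.9-fold in BN1 (log2 -4.16 ± 0.14, adjusted p = 2.5e-20), 4.34-fold in MA9 (-2.12 ± 0.12, 1.7e-15) and 3.07-fold in ME (-1.62 ± 0.11, 3.3e-13). The BN1 libraries held 33, 22 and 36 counts.

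**Figure D3:**
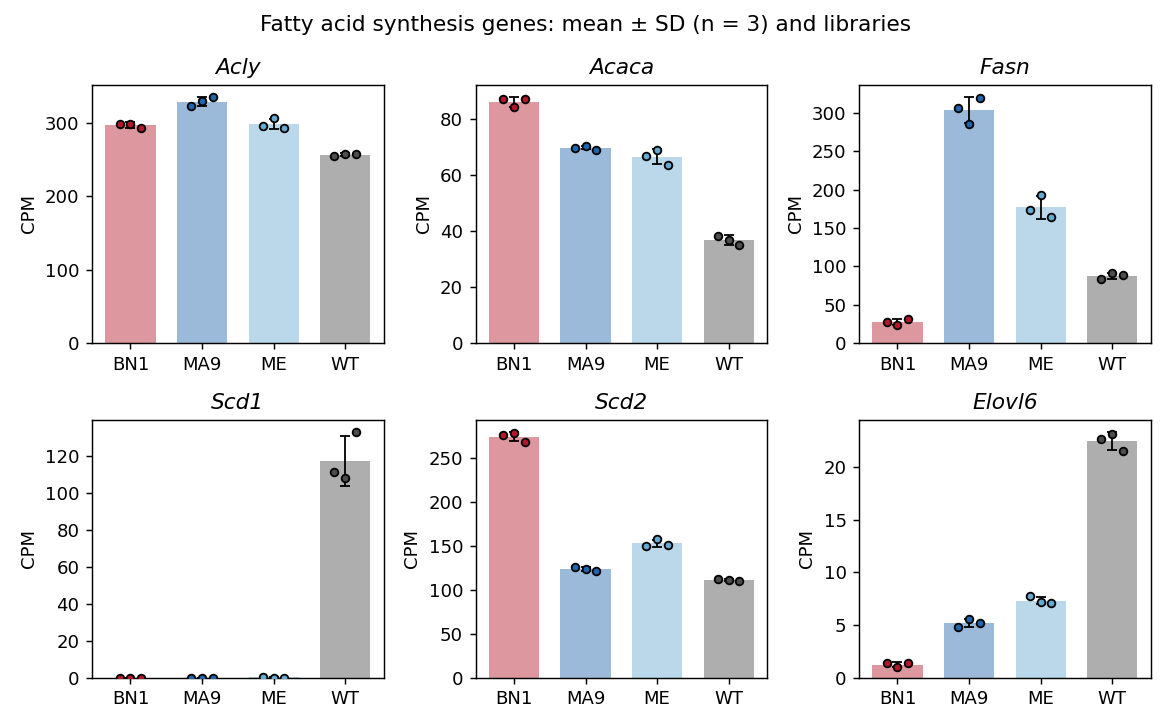
CPM of the 6 fatty acid genes in BN1, MA9, ME and WT, with bars for the mean, error bars for 1 SD (n = 3) and points for the libraries. Acly is similar in all groups, Acaca and Scd2 peak in BN1, Fasn peaks in MA9, and Scd1 and Elovl6 peak in WT.

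**Figure D4:**
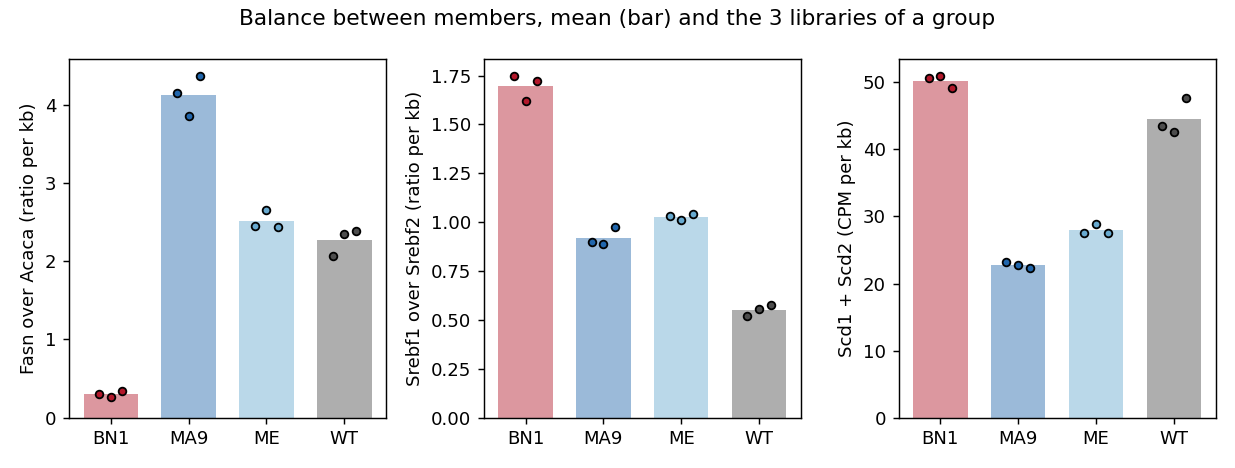
Balance between members in each library of BN1, MA9, ME and WT, with bars for group means: the ratio of Fasn to Acaca, the ratio of Srebf1 to Srebf2 and the sum of Scd1 and Scd2, all computed per kilobase of exon. BN1 has the lowest Fasn to Acaca ratio (0.304) and the highest Srebf1 to Srebf2 ratio (1.70).

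Set directly against the MLL-fusion leukemias, BN1 again had members on both sides. Against MA9, 11 members were higher and 12 lower, where 32.8% and 34.9% of all genes were called. Against ME, 12 were higher and 10 lower, beside 31.8% and 33% of all genes. The median log2 fold change of the members was 0.09 and -0.05 in these comparisons, and the median absolute value was 0.43 and 0.42, beside 0.48 and 0.44 for all genes. These comparisons share the BN1 libraries.

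Fasn differed most among the members above trace level, 10.9-fold lower in BN1 than in MA9 (log2 -3.45 ± 0.08, adjusted p = 6.2e-19) and 6.37-fold lower than in ME (-2.67 ± 0.08, 5.0e-17). Elovl6 was lower in BN1 by 4.12-fold against MA9 and 5.83-fold against ME. Scd2 was the gene most raised, 2.21-fold against MA9 (log2 1.14 ± 0.04) and 1.80-fold against ME (0.84 ± 0.04). Acaca was 1.24-fold higher in BN1 than in MA9 and 1.29-fold higher than in ME. Acly was lower in BN1 than in MA9 by a small margin (-0.15 ± 0.04, adjusted p = 0.0023) and was not called against ME. Scd1 was at trace level in the 3 leukemias and was not called between them.

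In the sterol arm, transcripts of squalene epoxidation and cyclisation were lower in BN1. Sqle stood at -1.04 ± 0.10 against MA9 and -0.65 ± 0.10 against ME, and Lss at -0.84 ± 0.10 and -0.68 ± 0.10. Acat2, Fdps and Fdft1 were also lower in BN1 in each of these comparisons, with values of -0.89 to -0.39. Hmgcs1, Mvk, Mvd, Tm7sf2, Msmo1, Sc5d and Dhcr7 were higher in BN1, with values between 0.15 and 0.64. Idi1 was lower in BN1 than in MA9 (-0.44 ± 0.09) and overlapped ME, and Pmvk, Cyp51, Nsdhl and Hsd17b7 were called by the edgeR fit in neither comparison, with values of -0.22 to 0.24. Other settings called some of these: DESeq2 and limma-voom called Nsdhl higher in BN1 than in ME, limma-voom called Cyp51 lower in BN1 than in ME, and upper-quartile scaling called Pmvk lower in BN1 than in MA9. The Dhcr7 call against MA9 (0.15 ± 0.06, adjusted p = 0.038) was lost without BN1 replicate 2 (0.12), BN1 replicate 3 (0.15), MA9 replicate 1 (0.12) or MA9 replicate 2 (0.14), and with no filter (0.15), under upper-quartile scaling (0.12) and under scaling by total count alone (0.10). Against ME, the Tm7sf2 call was lost without ME replicate 2 (0.28), and the Ebp call (0.16 ± 0.06) without BN1 replicate 2 (0.14) or ME replicate 1 (0.14).

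Of the sensing and transfer genes, Srebf2, Scap and Stard4 were lower in BN1 than in MA9, at -0.49 ± 0.05, -0.42 ± 0.07 and -0.94 ± 0.08, and than in ME, at -0.46 ± 0.05, -0.40 ± 0.07 and -0.89 ± 0.08. Srebf1 was higher by 0.39 ± 0.06 against MA9 and 0.26 ± 0.06 against ME. Insig2 was higher by 0.76 ± 0.12 and 0.50 ± 0.12. Insig1 was called in neither comparison, at -0.05 ± 0.07 and -0.09 ± 0.07.

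**Figure D5:**
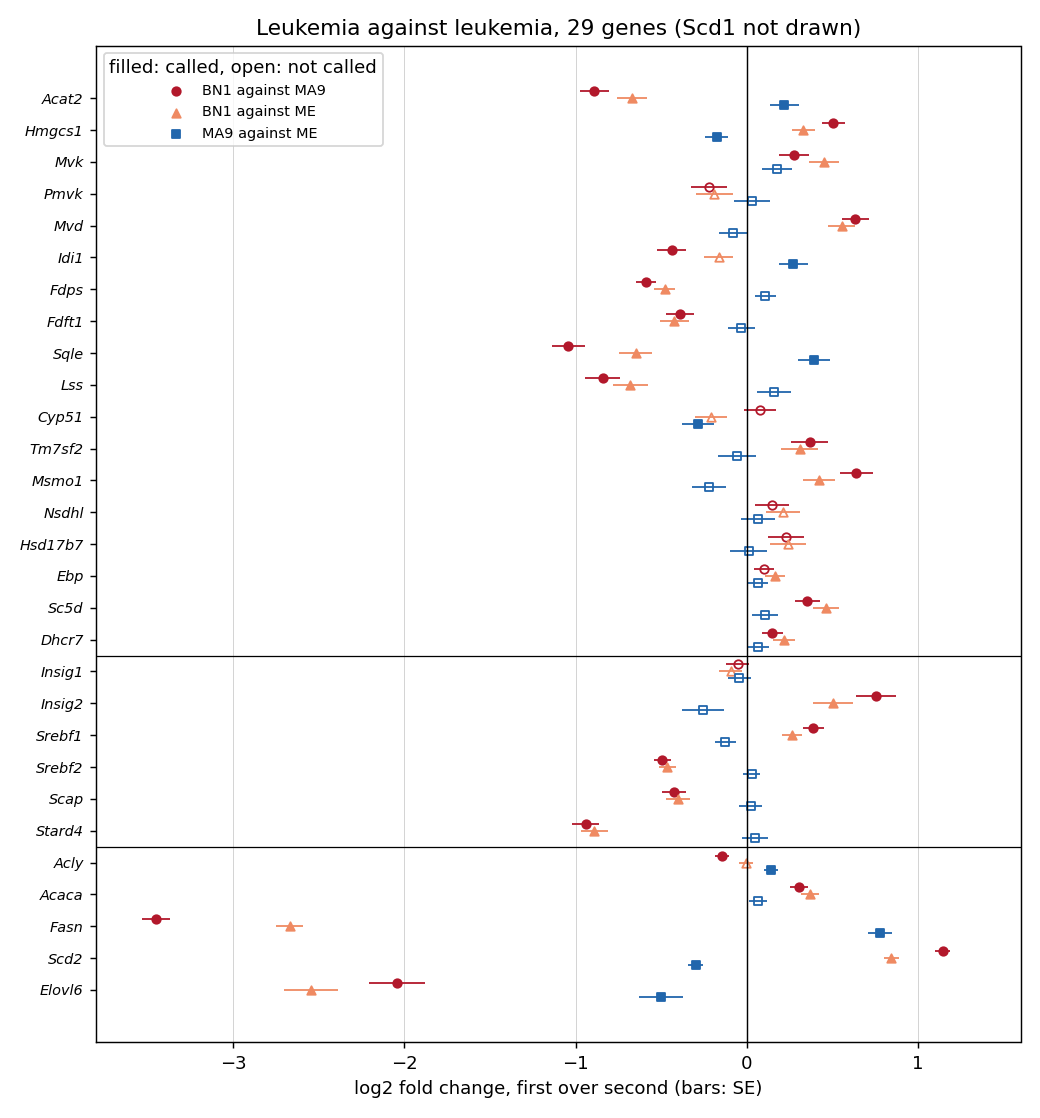
Log2 fold changes of 29 genes between leukemias, without Scd1, which is at trace level in all 3, first over second, with bars of 1 SE and filled symbols for an adjusted p under 0.05. Fasn and Elovl6 lie far left for BN1 against MA9 and BN1 against ME, Scd2 lies furthest right, and the MA9 against ME values drawn stay within 1 log2 unit of 0.

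MA9 and ME were closer to each other. Of the 30 members, 5 were higher and 4 lower in MA9 than in ME, beside 20.2% and 20.4% of all genes, and no called member differed by 2-fold or more. With scaling by total count alone, 7 were higher and 2 lower. The members' median absolute log2 fold change was 0.12, beside 0.23 for all genes. Fasn was 1.72-fold higher in MA9 (log2 0.78 ± 0.07, adjusted p = 1.2e-08), Sqle 1.31-fold higher (0.39 ± 0.09, 0.0012) and Acly higher by 0.14 ± 0.04 on the log2 scale. Scd2 was lower in MA9 by -0.30 ± 0.04, and Elovl6 by -0.50 ± 0.13. The log2 fold changes of the 6 sensing and transfer genes lay between -0.25 and 0.05.

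Some small calls between MA9 and ME were lost when 1 library was left out, in most cases any of several libraries. Acat2 (0.22 ± 0.08) was not called without MA9 replicate 2 (0.20), MA9 replicate 3 (0.19), ME replicate 2 (0.17) or ME replicate 3 (0.22), and Idi1 (0.27 ± 0.09) without MA9 replicate 2 (0.18) or ME replicate 2 (0.19). Cyp51 (-0.29 ± 0.10) was not called without ME replicate 3 (-0.22) or under scaling by total count alone (-0.23). Hmgcs1 (-0.18 ± 0.07) was not called without MA9 replicate 1 (-0.18), MA9 replicate 3 (-0.12), ME replicate 1 (-0.19), ME replicate 2 (-0.16) or ME replicate 3 (-0.19), nor by DESeq2 (-0.17), with only the groups compared (-0.18), with no filter (-0.18), under upper-quartile scaling (-0.15) or under scaling by total count alone (-0.12). Without ME replicate 3, the library that stood apart, 4 members were higher and 2 lower in MA9 than in ME, while Fasn, Sqle, Acly, Scd2 and Elovl6 were called as before.

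Cell division differed between the groups as well. The 12 division markers summed to 1747 ± 23.3 CPM in BN1, 2906 ± 42.9 CPM in MA9, 2698 ± 140 CPM in ME and 3574 ± 96.1 CPM in WT. The sum was lowest in BN1, the group with the lowest mean of Acat2, Pmvk, Fdft1, Sqle, Insig1, Srebf2, Stard4, Fasn and Elovl6. BN1 also held the highest mean of 12 members, and WT, with the highest division sum, held the lowest mean of 14 members. The markers did not all rank WT highest. Mcm2 was at 323 CPM in MA9 and 260 CPM in ME against 200 CPM in WT. Mcm5 was at 439 and 337 CPM against 244 CPM, and Pcna at 326 and 297 CPM against 274 CPM. The other division markers were highest in WT, led by Mki67 at 1289 CPM. The part of cell division in the differences of the members was not tested.

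A further 66 genes linked to these pathways were listed by role, and 61 of them were tested. In BN1 against WT, 21 were higher and 28 lower; in MA9 against WT, 26 and 26; and in ME against WT, 25 and 28. These counts stand beside the 38.4% and 40.8%, 39.3% and 40.8%, and 39% and 40.2% of all tested genes called higher and lower in the same comparisons. Acat1, the mitochondrial thiolase, was at 115 CPM in BN1, 112 CPM in MA9 and 107 CPM in ME, against 52.4 CPM in WT.

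Among SREBP processing genes, Mbtps1, the site-1 protease that first cuts the precursors, was at 286 ± 2.01 CPM in BN1, 128 ± 2.71 CPM in MA9, 123 ± 2.97 CPM in ME and 105 ± 3.89 CPM in WT. Its log2 fold change was 1.45 ± 0.04 in BN1 against WT and 1.16 ± 0.04 against MA9. Rnf145, a ubiquitin ligase linked to sterol sensing, fell in each leukemia, to 14.2 ± 0.32 CPM in BN1, 43.9 ± 0.49 CPM in MA9 and 23.7 ± 1.68 CPM in ME, against 124 ± 5.73 CPM in WT. Tmem97, a sterol-responsive membrane protein, was at 31.9 ± 1.16 CPM in BN1, 41.6 ± 3.72 CPM in MA9, 39.9 ± 3.43 CPM in ME and 14.1 ± 1.42 CPM in WT, and it rose in each leukemia.

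Of the 15 tested genes of sterol uptake, storage and efflux, 11 were higher and 3 lower in BN1 than in MA9, beside 32.8% and 34.9% of all genes. Against ME, 12 were higher and 2 lower in BN1, beside 31.8% and 33% of all genes. Abca1, a cholesterol efflux pump, was at 17.8 ± 1.46 CPM in BN1, 4.15 ± 0.12 CPM in MA9, 1.32 ± 0.39 CPM in ME and 41.1 ± 3.22 CPM in WT. Nr1h3, which encodes the sterol-sensing nuclear receptor LXR alpha, was at 7.06 ± 0.40 CPM in BN1, 0.84 ± 0.09 CPM in MA9, 1.603 ± 0.43 CPM in ME and 2.02 ± 0.31 CPM in WT. Soat1, which esterifies cholesterol for storage, was at 224 ± 9.17 CPM in BN1, 98.4 ± 4.29 CPM in MA9, 137 ± 2.83 CPM in ME and 104 ± 6.01 CPM in WT. Monocyte markers were higher in BN1 as well, at the levels given above, and their part in these differences was not tested.

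Of the other fatty acid genes, 24 were tested, and 4 were higher and 15 lower in BN1 than in WT, beside 38.4% and 40.8% of all genes. In MA9 the counts were 9 and 12, beside 39.3% and 40.8%, and in ME 10 and 13, beside 39% and 40.2%. Fads1, a desaturase of polyunsaturated fatty acids, was at 2.62 ± 0.27 CPM in BN1, 15.4 ± 0.81 CPM in MA9, 13.6 ± 0.98 CPM in ME and 27.9 ± 2.45 CPM in WT. Fads2, the companion desaturase, was at 0.11 CPM in BN1, 0.21 CPM in MA9 and 0.18 CPM in ME, against 12.95 CPM in WT. Slc25a1, which exports mitochondrial citrate for Acly, was at 30.5 ± 1.44 CPM in BN1, 76.6 ± 3.15 CPM in MA9, 49.3 ± 0.99 CPM in ME and 29.4 ± 2.09 CPM in WT. Like Fasn, it rose in MA9 (log2 1.38 ± 0.06) and ME (0.75 ± 0.07), and unlike Fasn it was not called lower in BN1.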

How the data were processed

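Counts per gene symbol were deposited by the authors for 12 libraries and used as given. Per the submitters' processing notes, HISAT2, featureCounts and DESeq2 were used with mm10; no source used here gives versions, annotation, strand use or the handling of multi-mapped reads. Per the labels' protocols, cells were FACS-sorted and stranded polyadenylated libraries were prepared with a TruSeq kit.

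Genes passing filterByExpr (15334) were scaled with TMM factors of 0.928 to 1.051 and fitted with edgeR 4.0.16 (robust quasi-likelihood, group only, 12 libraries; R 4.3.3). The biological coefficient of variation was 5.87%. Calls needed a Benjamini-Hochberg adjusted p under 0.05 over all tested genes. A standard error is the absolute log2 fold change divided by the square root of the quasi-likelihood F. Per-kilobase levels used union exon lengths of GENCODE M21 (GRCm38). Positions and start-site windows came from RefSeq (GRCm38.p6). Overlapping exons came from GENCODE M21. The fit was also run on counts simulated from its own dispersions, with few changed genes. That run cannot test the fit for these data, where far more genes were called. Python 3.11.15, pandas 2.3.3, scipy 1.17.1 and matplotlib 3.10.9 were used for the rest.

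The members and lists were chosen with earlier results of these data known. All 30 members are described. Of each other list, up to 4 called genes per direction and comparison with the largest change and a mean of at least 5 CPM were eligible. A few eligible genes are not reported here. Replicate numbers did not pair the libraries: the deviations of same-numbered libraries correlated at -0.08 to 0.06 in 18 pairs. Alternatives were DESeq2 1.42.0, limma-voom (limma 3.58.1), other scalings and filters, only the groups compared, a replicate block, a 2-fold minimum and each library left out. Intervals cover counting error only.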

Additional observations from a re-analysis of the deposited data

Results flagged for a closer look

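A set of 4 members moved in opposite directions against WT in BN1 and in an MLL-fusion leukemia. Since they were picked for these opposite directions against shared WT libraries, their difference between the leukemias was fixed by the choice and is given as a description. Fasn was lower in BN1 than in MA9 by -3.45 and than in ME by -2.67 on the log2 scale. Stard4 was lower in BN1 by -0.94 against MA9 and -0.89 against ME. Sqle stood at -1.04 in BN1 against MA9, and Insig2 at 0.76. Groups of 3 libraries are too small for a search for outlying samples.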

How the results depend on the processing

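The fit gave 125 calls among 180 values of the 30 members in 6 comparisons, and no call reversed direction under any alternative. Apart from the 2-fold minimum, 114 calls were kept in every alternative and every fit without 1 library; 9 were lost in some fit without 1 library and 7 in another alternative, the cause of which was not tested. With the 2-fold minimum, 5 members were higher and 4 lower in BN1 against WT, 5 and 4 in MA9 against WT, 4 and 3 in ME against WT, 1 and 3 in BN1 against MA9, 0 and 2 in BN1 against ME, and 0 and 0 in MA9 against ME, since the threshold is stricter by construction. Library size alone gave 7 members higher and 2 lower in MA9 against ME in place of 5 and 4, and 17 higher and 9 lower in BN1 against WT in place of 12 and 11. Calls gained numbered 11 under library size alone, 5 under upper-quartile scaling, 4 each with DESeq2, limma-voom, no filter and only the groups compared, 3 with RLE size factors and 2 with a mean of at least 1 CPM. Scaling by library size alone also moved the median log2 fold change of all genes to 0.11, 0.16 and 0.10 in BN1, MA9 and ME against WT. Under that scaling, all calls in MA9 against ME split into 3888 higher and 2509 lower, in place of 3095 and 3130. When 1 library was left out, 3 to 5 members were higher and 2 to 6 lower in MA9 against ME: 3 were higher without MA9 replicate 2 or ME replicate 2, and 2 were lower without ME replicate 3. The replicate block gave 12 members higher and 10 lower in BN1 against WT, 16 and 8 in MA9 against WT, 17 and 7 in ME against WT, 11 and 12 in BN1 against MA9, 12 and 10 in BN1 against ME, and 5 and 4 in MA9 against ME. The low counts of Scd1 in the leukemias limit the precision of its ratios.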
